A study of Mus musculus with 4 samples.

Results

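A set of 7 genes of the anterior visceral endoderm were followed through single-cell RNA libraries of whole mouse embryos: the secreted antagonists Cer1, Lefty1, Dkk1, Sfrp1 and Sfrp5 and the transcription factor genes Hhex and Lhx1. They were chosen by name, with earlier results of these data known, and are 7 of the 25437 gene names in the files. All 7 were present. Each was measured as CPM (its count relative to all counts of the same cells) in the endoderm lineage, as the share of endoderm cells holding at least 1 of its molecules, and by its presence beside the other members in the same cell.

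The visceral endoderm is the extraembryonic epithelium that wraps the early epiblast. Cells at its distal tip, which later move to the prospective anterior side, secrete antagonists of Nodal, BMP and WNT signalling and so keep the neighbouring epiblast from forming the primitive streak. Cer1 binds Nodal and BMP ligands, Lefty1 blocks Nodal receptors and their co-receptors, Dkk1 binds the WNT co-receptors of the LRP family, and the Sfrp proteins bind WNT ligands. Hhex and Lhx1 are homeobox genes needed for the anterior identity of this tissue.

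The study followed embryos through diapause, the reversible arrest of the blastocyst, its reactivation and early postimplantation growth. There were 4 libraries, 1 per stage, all from wild-type B6C3F1/J embryos: EDG7.5 and EDG9.5, Reactivated (labelled EDG9.5 with 30 h of E2) and E5.5. Between 200 and 250 blastocysts flushed from uteri were pooled for each of the first 3, and 50 embryos taken out of implantation sites for E5.5. With 1 library per stage, no difference between stages could be tested against replicate error, and stage, way of collection and library cannot be told apart. Intervals given here are exact 95% intervals and cover counting error only.

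EDG7.5 held 1726 barcodes, EDG9.5 held 2566, Reactivated 677 and E5.5 held 9560, with medians between 3725 and 13154 unique molecular identifiers (UMIs, one per captured RNA molecule). Any pair of libraries shared between 1 and 27 barcodes. Clusters were assigned to lineages by marker lists that contain none of the 7 members, which gave 580, 867, 303 and 2994 endoderm cells in the same order, out of 1658, 2451, 671 and 9263 cells kept. All 15 endoderm markers reached 20 CPM in the endoderm of every library. The same markers named the clusters, so this is not a separate check of the naming. Summed epiblast markers had between 382 and 660 CPM in endoderm against 2779 to 7277 CPM in epiblast, and the haemoglobin genes Hbb-bs and Hbb-bt were at 0 in endoderm of all 4 libraries. Other lists were not all as low. In Reactivated endoderm the decidual stroma markers summed to 88.5 CPM (5.85 in epiblast) and the endothelium markers to 114 CPM (94.4 in epiblast). The immune markers had 3.64 CPM there. The source of this RNA was not tested.

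The 3 members with the largest difference in endoderm between EDG9.5 and E5.5 were Cer1, Sfrp5 and Lhx1, so the 250 bases before their transcription starts are printed here, 5′ to 3′ on the strand of the gene, from RefSeq on GRCm38.p6. Capitals mark TAATTA, the core bound by LIM-class homeodomain proteins such as that of Lhx1.
Cer1 (chr4:82885152-82885401, minus strand): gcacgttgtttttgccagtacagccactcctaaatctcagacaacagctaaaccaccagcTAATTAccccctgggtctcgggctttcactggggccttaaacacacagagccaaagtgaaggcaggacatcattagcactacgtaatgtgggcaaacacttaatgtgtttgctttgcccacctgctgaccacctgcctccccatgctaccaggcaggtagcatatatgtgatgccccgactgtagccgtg
Sfrp5 (chr19:42202253-42202502, minus strand): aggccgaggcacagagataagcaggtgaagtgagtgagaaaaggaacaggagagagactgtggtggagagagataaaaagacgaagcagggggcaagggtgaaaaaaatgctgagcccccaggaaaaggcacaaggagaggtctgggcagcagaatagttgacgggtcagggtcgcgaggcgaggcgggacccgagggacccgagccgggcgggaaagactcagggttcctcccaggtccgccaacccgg
Lhx1 (chr11:84525535-84525784, minus strand): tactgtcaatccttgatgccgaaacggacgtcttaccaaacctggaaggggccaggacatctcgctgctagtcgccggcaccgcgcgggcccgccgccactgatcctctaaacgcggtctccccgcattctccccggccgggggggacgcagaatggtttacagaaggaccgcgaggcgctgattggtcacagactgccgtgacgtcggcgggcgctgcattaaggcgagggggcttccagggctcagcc

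Promoters of 5 of the 7 members were in that table, the others being Dkk1 and Hhex, and Lefty1 and Sfrp1 have no entry. TAATTA, which reads the same on both strands, occurred once, in Cer1, beginning 190 bases before the start. Of all 32851 promoter windows of this length, 4.84% held it. This core was added after the following 4 had been searched on both strands without a match in any of the 5 windows. They were TAATCC of the OTX and Goosecoid class (in 6.25% of all windows), AATCCACA of FOXH1 (0.718%), TGTTTAC of FOXA proteins (3.17%) and TCACACC of T-box proteins (3.33%). A match is a match of letters only, and its absence says nothing beyond these windows.

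In the annotation on the same build no other gene overlapped any member. Lefty1 (chromosome 1, 180935022 to 180938401) has a near copy, Lefty2. Of the 50-base windows of its transcript, 17.9% also occur in a Lefty2 transcript, or 2.44% within the last 500 bases, so reads from those windows could have been split between the 2 genes or lost in counting.

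The Nodal and BMP antagonists were detected from different stages on. Cer1 had 0 UMIs in endoderm of EDG7.5 and EDG9.5, where a floor of 3 counts allows up to 0.517% and 0.346% of cells with a UMI (exact 95% limits 0.634% and 0.425%). It had 4 UMIs in 3 of 303 cells of Reactivated, or 0.86 CPM (0.23 to 2.20). In E5.5 it had 2238 UMIs and 82.5 CPM (79.2 to 86.0). Cer1 RNA was therefore close to absent in the 3 flushed libraries and detected in 527 of 2994 endoderm cells of E5.5.

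Lefty1 was present in endoderm of every library. EDG7.5 had 38.4 CPM (31.9 to 45.7) and EDG9.5 85.9 CPM (76.7 to 95.9). Reactivated had 194 CPM (182 to 208) and E5.5 68.1 CPM (65.0 to 71.3). The 4 intervals do not overlap, with Reactivated highest and EDG7.5 lowest. The RNA was concentrated in few cells: in EDG9.5 the 10 highest of 867 cells held 61.4% of all Lefty1 UMIs, and 1 cell held 32 of 316. In Reactivated the 10 highest cells held 33.2%, and in E5.5 11.4%. The order of EDG7.5, EDG9.5 and E5.5 for Lefty1 thus rests on small numbers of cells in the first 2.

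Of the WNT antagonists, Dkk1 was detected at all stages. Its endoderm level was 177 CPM (162 to 192) in EDG7.5 and 162 CPM (150 to 176) in EDG9.5. Reactivated reached 378 CPM (360 to 396), and E5.5 had 112 CPM (108 to 116). EDG7.5 and EDG9.5 overlap in their intervals, Reactivated lies above both and E5.5 below. Dkk1 was spread over many cells, and 286 of 303 endoderm cells of Reactivated held at least 1 UMI.

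Sfrp1 followed another order. Endoderm had 90.6 CPM (80.5 to 102) in EDG7.5 and 82.1 CPM (73.1 to 91.9) in EDG9.5. The level was 38.2 CPM (32.8 to 44.2) for Reactivated and 279 CPM (273 to 286) for E5.5. The EDG7.5 and EDG9.5 intervals overlap, Reactivated is the lowest and E5.5 the highest. Sfrp5, a related WNT-binding protein gene, had 0 UMIs in EDG7.5, 3 in EDG9.5 and 6 in Reactivated, and then 2598 UMIs or 95.8 CPM (92.2 to 99.6) in E5.5. Like Cer1, it was near its detection limit in all 3 flushed libraries.

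The 2 transcription factor genes differed in timing. Hhex had 61.1 CPM (52.9 to 70.2) in EDG7.5 and 59.8 CPM (52.2 to 68.3) in EDG9.5. It had 196 CPM (184 to 209) with Reactivated and 70.5 CPM (67.4 to 73.8) with E5.5. The intervals of the other 3 libraries overlap, and Reactivated stands apart. Lhx1 had 9 UMIs in EDG7.5 and 6 in EDG9.5, then 301 UMIs or 64.5 CPM (57.4 to 72.2) in Reactivated and 5412 UMIs or 200 CPM (194 to 205) in E5.5. Lhx1 was thus the member that was near 0 in diapause endoderm and already detected in 124 of 303 cells of Reactivated.

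**Figure D1:**
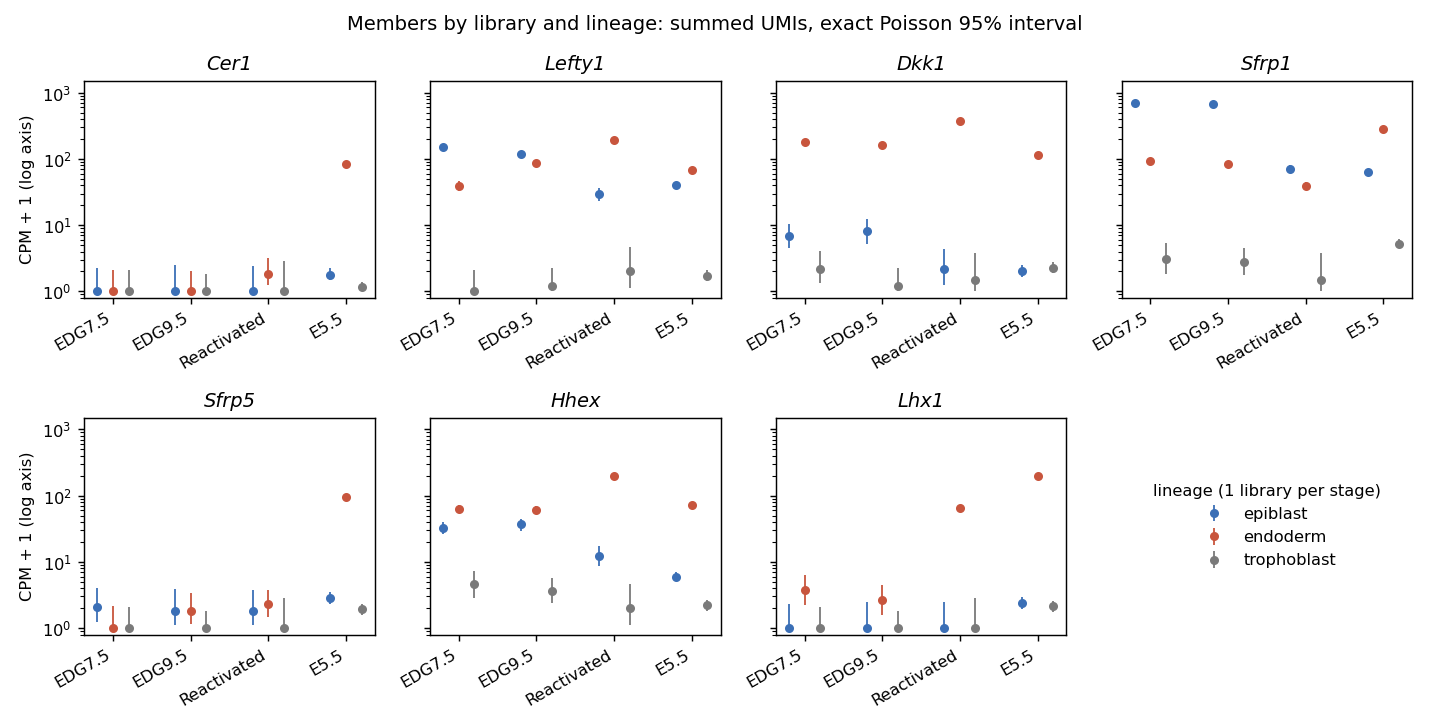
CPM plus 1 (log axis) of each member by library, with 1 point per lineage and exact Poisson 95% intervals for counting error. Cer1 and Sfrp5 stand far above the axis floor in E5.5 endoderm alone, Lhx1 in Reactivated and E5.5 endoderm, and Sfrp1 is higher in epiblast than in endoderm in EDG7.5, EDG9.5 (685 against 82.1 CPM) and Reactivated (69.5 against 38.2 CPM) and lower in E5.5 (61.6 against 279 CPM).

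For comparisons of libraries, a gene was called when CPM plus 10 differed at least 2-fold and the 2 sums held at least 10 UMIs. Between the 2 diapause libraries no member was called higher in EDG9.5 over EDG7.5, where 0.16% of 12520 genes were called higher, and none lower, where 0.0399% were. Lefty1 lay just short of the limit, with a ratio of 2.24 (1.81 to 2.78) and a log2 difference of 0.99. Its log2 difference was 0.51 with cells thinned to equal depth. Dkk1, Sfrp1 and Hhex had ratios of 0.92 (0.82 to 1.03), 0.91 (0.77 to 1.07) and 0.98 (0.80 to 1.19), and Lhx1, from 6 and 9 UMIs, 0.59 (0.17 to 1.86).

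From EDG9.5 to Reactivated, 4 members were called higher, against 5.64% of all 12679 genes, and none lower, against 10.6%. They were Lhx1, with a ratio of 39.5 (18.0 to 109), Hhex at 3.28 (2.83 to 3.82), Dkk1 at 2.33 (2.12 to 2.56) and Lefty1 at 2.26 (1.99 to 2.58), whose call is lost when 50 CPM are added in place of 10 (log2 difference 0.85). The endoderm of the 2 libraries differed in its clusters, described further on: Lefty1 had 371 CPM in a cluster with 11.2% of EDG9.5 endoderm cells and 301 CPM in one with 60.7% of those of Reactivated, so the cluster with the most Lefty1 was not higher in Reactivated. The part of these cluster shares in the difference was not tested. Sfrp1 had a ratio of 0.46 (0.38 to 0.56), a log2 difference of -0.94 that stayed inside the limit. Cer1 and Sfrp5 had too few UMIs to be compared. The median log2 difference of the 5 measured members was 1.17, and that of all genes -0.16.

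E5.5 over EDG9.5 gave 4 members called higher, against 6.09% of 15218 genes, and 0 lower, against 8.57%. Cer1 was at least 101-fold higher against the floor of 3 UMIs over the endoderm, and the exact 95% interval of its ratio starts lower, at 82.2. The ratios were 117 (40.2 to 570) for Sfrp5, 122 (56.2 to 334) for Lhx1 and 3.40 (3.03 to 3.83) for Sfrp1. Hhex (1.18, 1.02 to 1.36), Lefty1 (0.79, 0.70 to 0.90) and Dkk1 (0.69, 0.63 to 0.75) stayed within 2-fold. For Lefty1 the direction depends on the scaling: its log2 difference was -0.30 by total UMIs, 0.04 with TMM factors and 0.51 when averaged per cell.

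The postimplantation and reactivated libraries differed in every member. In E5.5 over Reactivated, 4 members were called higher, against 3.11% of 14948 genes, and 3 lower, against 2.38%. Cer1 (ratio 96.3, 37.5 to 354), Sfrp5 (74.5, 34.2 to 203), Sfrp1 (7.32, 6.31 to 8.54) and Lhx1 (3.09, 2.75 to 3.49) were higher. Lefty1 was 2.86 (2.63 to 3.09) times lower, Dkk1 3.38 (3.19 to 3.59) times and Hhex 2.78 (2.57 to 3.01) times. The comparisons share libraries, so their counts are not independent of each other.

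Shares of positive cells depend on depth, and the median endoderm cell held 3692 UMIs in EDG9.5 and 14262 in Reactivated. Each cell was therefore thinned to 2000 UMIs, which left out 10 endoderm cells of EDG7.5, 88 of EDG9.5 and none of the other 2 libraries. Dkk1 was then found in 22.3% of EDG7.5, 21.1% of EDG9.5, 48.8% of Reactivated and 18.1% of E5.5 cells, and without thinning in 42.9%, 33.6%, 94.4% and 48.9%. Hhex was found in 10.4%, 11.04%, 32.3% and 11.6% in the same order after thinning (25.3%, 20.1%, 81.8% and 35.6% without). Lefty1 was found in 5.44%, 5.52%, 17.2% and 7.85% (11.03%, 8.19%, 39.6% and 14.8% without). These 3 members had their highest share in Reactivated. After thinning Sfrp1 was lowest there, at 15.4%, 12.2%, 7.92% and 28.5%, but without thinning EDG9.5 was lowest (33.4%, 21.5%, 29.4% and 42.4%).

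After thinning, Lhx1 was found in 0.351%, 0%, 8.91% and 24.1% of endoderm cells, Cer1 in 0% of the first 3 libraries and 9.08% of E5.5, and Sfrp5 in 0%, 0.257%, 0% and 14.7%. Without thinning, Lhx1 was found in 1.38%, 0.461%, 40.9% and 44.4%, Cer1 in 0%, 0%, 0.990% and 17.6%, and Sfrp5 in 0%, 0.346%, 1.98% and 34.6%. In trophoblast, a lineage that served as a background for free RNA, thinned shares of the 7 members ranged from 0% to 0.815%, the highest being Sfrp1 in E5.5. Median UMIs per trophoblast cell were 4714, 3834, 11413 and 8633, against 5122, 3692, 14262 and 8744 in endoderm. The Sfrp5 share in EDG9.5 endoderm and the Lhx1 share in EDG7.5 endoderm, 2 cells each, lie within that range over members. That range spans all members and libraries, however. Sfrp5 itself had 0 UMIs in trophoblast of EDG9.5, and Lhx1 had 0 UMIs in trophoblast of EDG7.5.

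**Figure D2:**
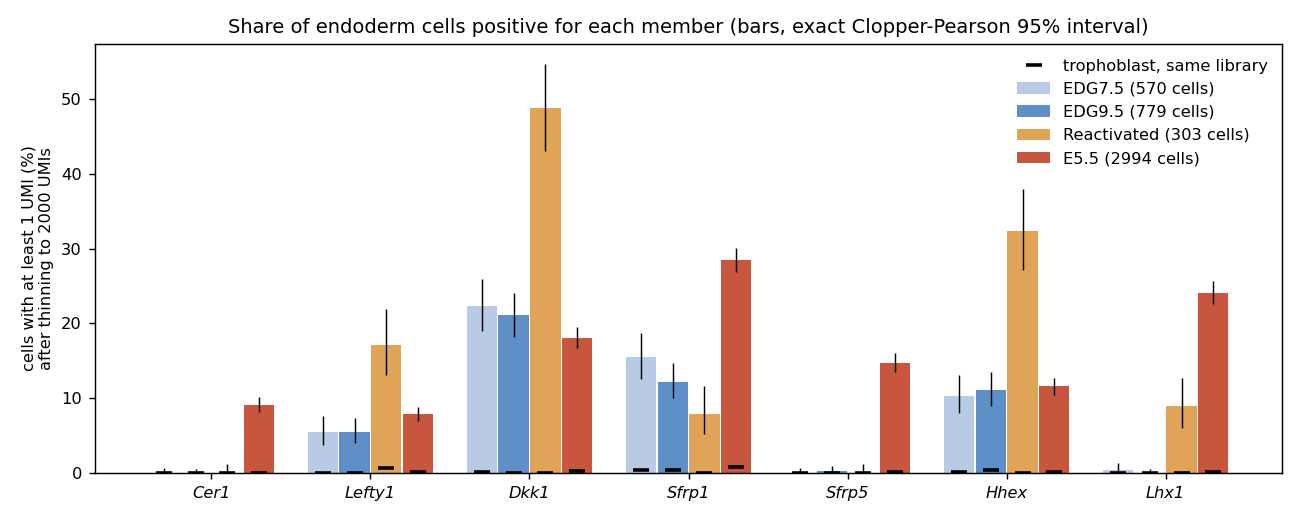
Share of endoderm cells (%) with at least 1 UMI of each member after thinning to 2000 UMIs, by library, with exact Clopper-Pearson 95% intervals; black dashes give trophoblast cells of the same library. Lefty1, Dkk1 and Hhex are highest in Reactivated, while Cer1, Sfrp1, Sfrp5 and Lhx1 are highest in E5.5.

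Outside endoderm, 3 members were also present in epiblast, and the order of their levels there was another one. Sfrp1 had 698 CPM (668 to 730) in EDG7.5 epiblast and 685 CPM (653 to 718) in EDG9.5, but 69.5 CPM (59.6 to 80.5) in Reactivated and 61.6 CPM (58.5 to 64.9) in E5.5. In EDG7.5 and EDG9.5 epiblast, 69.1% and 65.0% of thinned cells held Sfrp1. Lefty1 had 148, 117, 28.5 and 39.7 CPM in epiblast in the same order, and Hhex 31.9, 35.7, 11.3 and 5.004 CPM. Of the epiblast comparisons with EDG9.5, Reactivated gave 3 members called lower, against 16.4% of 12242 genes, and none higher, against 7.29%. E5.5 over EDG9.5 gave the same 3 members lower, against 12.5% of 15834 genes, and none higher, against 7.04%. E5.5 over Reactivated gave 0 members higher and 0 lower in epiblast, against 3.1% and 4.47% of 15560 genes.

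The lineage with the higher Sfrp1 level differed between these libraries. Epiblast held 84.8% of the Sfrp1 UMIs of the 3 named lineages in EDG9.5, and endoderm 83.0% in E5.5. Epiblast Sfrp1 was 11.1-fold (10.4 to 11.9) lower in E5.5 than in EDG9.5. Between EDG7.5 and EDG9.5 no member was called in epiblast, where 0.0323% of 12393 genes were called higher and 0.0161% lower. Cer1, Dkk1, Sfrp5 and Lhx1 stayed at or below 7.14 CPM in epiblast of all 4 libraries. How much of the Sfrp1 and Lefty1 signal in diapause endoderm is RNA from epiblast was not tested: Sfrp1 in EDG9.5 had 685 CPM in epiblast, 82.1 in endoderm and 1.78 in trophoblast, while the summed epiblast markers had 7277, 382 and 153 CPM.

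Endoderm was not uniform in any library. Because some members helped to form the clusters, the cells were clustered again with all 7 members left out, and the values below come from that clustering. It gave 3 endoderm clusters for each of EDG7.5 and EDG9.5, 2 for Reactivated and 4 for E5.5. Clusters are described by summed lists of visceral endoderm genes (such as Ttr, Afp and Cubn) and parietal endoderm genes (such as Sparc and Lama1), which hold no member.

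In E5.5, cluster 5 (1092 of 2994 endoderm cells, led by Irs4, Gpc4 and Afp) held nearly all of 5 members. It contained 99.6% of the Cer1 UMIs, 99.2% of Lefty1, 95.2% of Sfrp1, 91.2% of Lhx1 and 88.6% of Sfrp5, with 36.5% of the endoderm cells. Hhex was less concentrated, with 70.0% of its UMIs there. Dkk1 was not concentrated in it: 32.4% of its UMIs were in cluster 5, and its level was 99.3 CPM there, 120 CPM in cluster 7, 151 CPM in cluster 9 and 89.6 CPM in cluster 4. The visceral list summed to 14798 CPM and the parietal list to 3181 CPM in cluster 5. Cluster 4, at 35494 CPM of the parietal list, had 1 UMI of Cer1, 4 of Lefty1 and 2 of Lhx1 in 374 cells.

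The other 2 clusters of E5.5 were low in most members. Cluster 7 (1304 cells, led by Apoc2 and Cubn) had the highest visceral list, 15952 CPM, and 0.56 CPM of Cer1 and 0.80 CPM of Lefty1. It kept some Lhx1 (37.4 CPM), Sfrp1 (27.0 CPM) and Sfrp5 (21.6 CPM). Cluster 9 (224 cells, led by Cited1, with 11486 CPM of the visceral and 12924 CPM of the parietal list) had the highest Dkk1 and at most 5.75 CPM of Cer1, Lefty1, Sfrp1, Sfrp5 and Lhx1. Clusters 5 and 7 thus had like sums of the visceral list and unlike levels of 6 members.

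Reactivated had 2 endoderm clusters. Cluster 4 (184 of 303 cells, led by Pga5, Cyp26a1 and Has2) held 97.3% of the Lhx1 UMIs, 94.2% of Lefty1, 89.3% of Sfrp1, 71.7% of Hhex and 62.8% of Dkk1, with 60.7% of the cells. All 4 Cer1 UMIs and all 6 Sfrp5 UMIs were in it. Lefty1 had 301 CPM (281 to 322) in cluster 4 and 29.0 CPM (21.7 to 38.0) in cluster 3, which was led by the laminin genes Lamc1, Lama1 and Lamb1. Dkk1 was alike in both, at 390 and 359 CPM with overlapping intervals. Sfrp1 had 56.0 CPM (47.6 to 65.4) in cluster 4 and 10.4 CPM (6.26 to 16.2) in cluster 3.

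In EDG9.5 one small cluster stood apart for Lefty1. Cluster 8 (97 cells, 11.2% of the endoderm, led by Cubn, Spink3 and S100g) held 83.2% of the Lefty1 UMIs, at 371 CPM (327 to 418), against 15.7 and 18.7 CPM in the other 2 clusters. A Lefty1 UMI was found in 28 of its 97 cells, and 10 cells held 61.4% of the Lefty1 UMIs of all EDG9.5 endoderm. The interval covers counting error alone and not this spread between cells. It also had more Dkk1, 312 CPM (272 to 356) against 105 and 135 CPM. Its Hhex level, 70.5 CPM (52.3 to 92.9), overlapped those of the others, and its Sfrp1 level of 45.1 CPM (30.9 to 63.7) touched the interval of one (80.7, 62.5 to 102) and lay below the other (95.1, 82.4 to 109). Cluster 8 had the highest visceral list of the EDG9.5 clusters, 3473 CPM against 759 and 1127. Among the 3 clusters of EDG7.5, Lefty1 ranged only from 17.7 to 48.7 CPM and Dkk1 from 161 to 199 CPM.

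**Figure D3:**
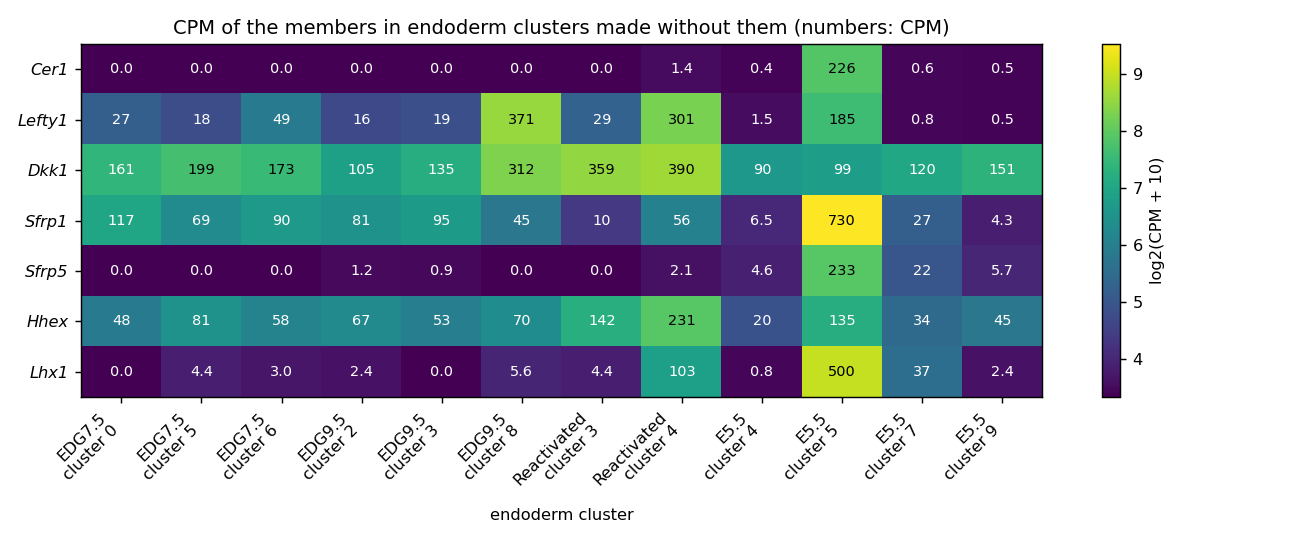
CPM of each member (rows, printed in each field; colour is log2 of CPM plus 10) in the 12 endoderm clusters made without the members (columns, grouped by library). Cluster 5 of E5.5 is high in 5 members at once, cluster 4 of Reactivated and cluster 8 of EDG9.5 are high in Lefty1, and Dkk1 is spread over all clusters.

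The number of members detected per single cell was counted next. It rises with the share of cells positive for each member, and its value for independent members was not computed. By itself this number therefore does not show that members share cells, which the counts of pairs further on address. At 2000 UMIs per cell, 2 or more members were detected in 9.12% (6.89 to 11.8) of EDG7.5 and 9.37% (7.42 to 11.6) of EDG9.5 endoderm cells. The share was 33.0% (27.7 to 38.6) for Reactivated and 28.8% (27.2 to 30.5) for E5.5. For 3 or more members the shares were 0.877%, 1.03%, 8.58% (5.68 to 12.3) and 16.6% (15.3 to 18.0). Reactivated and E5.5 overlap in the first count, and E5.5 is higher in the second. The highest number in a thinned cell was 4 in each of the first 3 libraries. In E5.5, 30 cells had 6 or more, and at full depth 99 of 2994 cells held all 7.

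**Figure D4:**
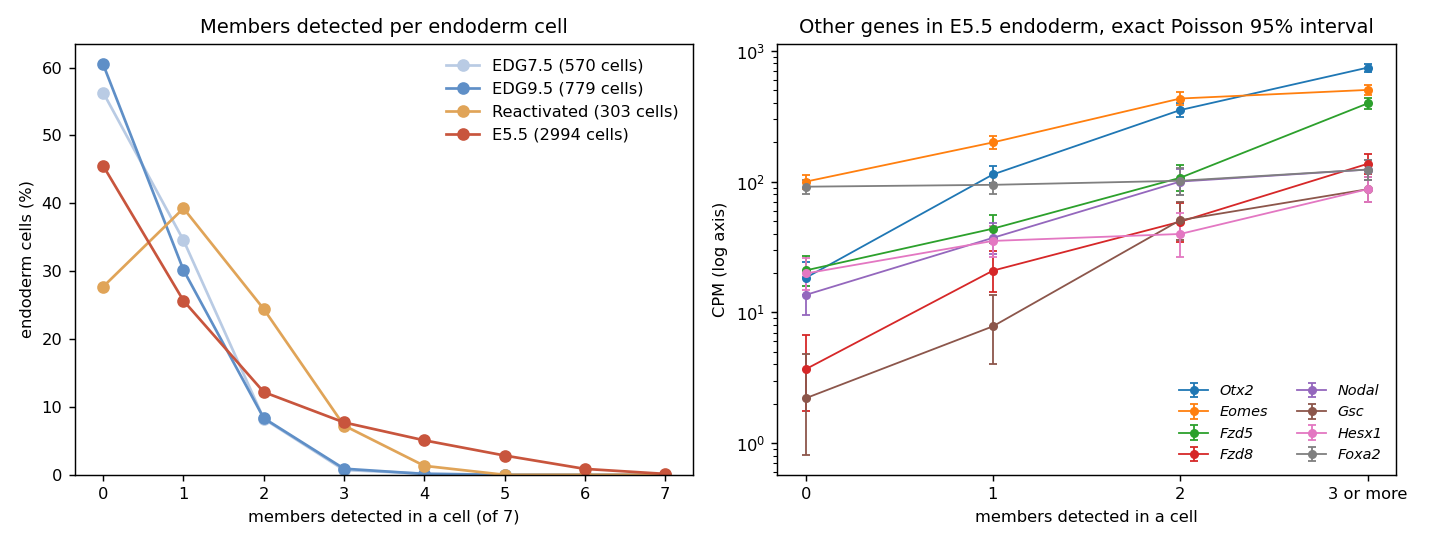
Left, percent of endoderm cells by the number of members detected after thinning to 2000 UMIs, 1 line per library. Right, CPM (log axis) of 8 other genes in E5.5 endoderm by the number of members detected in the same cell, with exact Poisson 95% intervals: Otx2 goes from 18.3 to 743 CPM while Foxa2 stays between 91.3 and 123 CPM.

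In E5.5, Cer1 and Lefty1 were detected together more often than if independent, though each was also detected without the other. Cer1 was detected in 53.2% (46.6 to 59.7) of the 235 Lefty1-positive thinned cells and in 5.33% (4.52 to 6.23) of the others, and both together in 125 cells against 21.3 if the 2 genes were independent. Of Cer1-positive cells, 89.0% had Sfrp1 and 71.0% had Lhx1. At full depth, 520 of 527 Cer1-positive cells held Sfrp1. Sfrp1 in turn was wider, since 28.4% of Sfrp1-positive cells had Cer1. All 15 pairs among Cer1, Lefty1, Sfrp1, Sfrp5, Hhex and Lhx1 were found together more often than under independence, from 1.92 times (Hhex with Lhx1) to 5.85 times (Cer1 with Lefty1).

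Dkk1 did not follow the other WNT antagonists. It was detected with Sfrp1 in 118 cells against 154 under independence, a ratio of 0.77. Its ratio with Cer1, Lefty1, Sfrp5 and Lhx1 was between 0.82 and 0.85, and with Hhex 1.15. Sfrp1-positive cells had Dkk1 in 13.8% (11.6 to 16.4) of cases and Sfrp1-negative cells in 19.7% (18.1 to 21.5).

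Much of this sharing is membership of 1 cluster, so pairs were also counted inside cluster 5 of E5.5 alone. There Cer1 was found in 53.6% (47.0 to 60.2) of Lefty1-positive and 17.1% (14.7 to 19.8) of Lefty1-negative cells, and in 45.5% (39.0 to 52.1) of Hhex-positive against 19.3% (16.7 to 22.1) of Hhex-negative cells. In turn, Lefty1 was found in 46.0% (39.9 to 52.1) of Cer1-positive and 13.2% (10.9 to 15.7) of Cer1-negative cells. Among cells binned by depth, the Cer1 and Lefty1 pair was seen 2.04 times as often as under independence, Cer1 with Hhex 1.77 times and Hhex with Lefty1 1.52 times. Sfrp1 with Lhx1, both present in over 50% of the cells, came to 1.07. Dkk1 pairs, also binned by depth, lay between 0.90 and 1.14 inside the cluster. The range of 0.77 to 1.15 over all endoderm was taken without this binning, so the 2 ranges are not like measures.

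**Figure D5:**
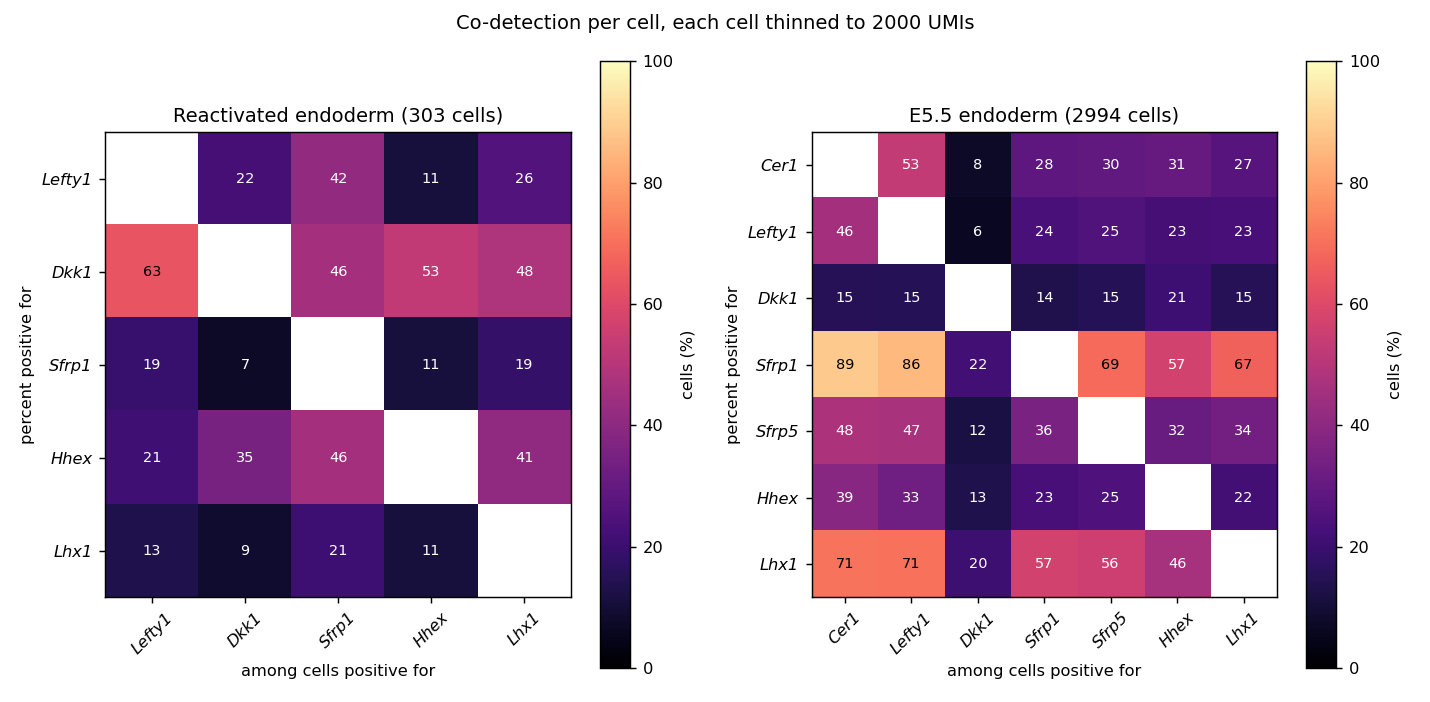
Percent of cells positive for the member in the row among cells positive for the member in the column, in endoderm of Reactivated (5 members with enough cells) and E5.5 (7 members), at 2000 UMIs per cell. In E5.5 the rows of Sfrp1 and Lhx1 reach 89% and 71% in the Cer1 column, while the Dkk1 row stays between 14% and 21%.

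Sharing was weaker in Reactivated and rests on fewer cells. Lefty1 was detected in 41.7% (22.1 to 63.4) of the 24 Sfrp1-positive cells and in 15.1% (11.1 to 19.8) of the others. All 24 lay in cluster 4. Among Sfrp1-negative cells of that cluster the Lefty1 share was 24.4% (17.9 to 31.8), whose interval overlaps that of the 24. Hhex and Lefty1, by contrast, were found together in 11 cells against 16.8 under independence. Hhex was in 21.2% (11.1 to 34.7) of Lefty1-positive and 34.7% (28.8 to 40.9) of Lefty1-negative cells. Inside cluster 4 Hhex was in 22.4% (11.8 to 36.6) of Lefty1-positive and 45.9% (37.3 to 54.7) of Lefty1-negative cells. At full depth Hhex was in 110 of 120 Lefty1-positive cells, or 91.7%, and in 75.4% of the others, so the direction differs with the depth used. In EDG9.5, Dkk1 was in 48.8% (33.3 to 64.5) of the 43 Lefty1-positive cells against 19.4% (16.6 to 22.5) of the others. Inside its cluster 8, which was high in both genes, the shares were 63.2% (38.4 to 83.7) of 19 cells and 30.7% (20.5 to 42.4), with overlapping intervals.

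Other genes of the distal and anterior visceral endoderm were read in the same E5.5 cells, grouped by how many members each cell held. From 0 members (1363 cells) to 3 or more (498 cells), the homeobox gene Otx2 went from 18.3 (13.6 to 24.2) to 743 CPM (690 to 798). Goosecoid (Gsc), also a homeobox gene, went from 2.20 to 87.3 CPM, the T-box gene Eomes from 99.8 to 502 CPM, the WNT receptor gene Fzd5 from 20.9 to 396 CPM and Fzd8 from 3.67 to 137 CPM. Nodal, the ligand that Cer1 and Lefty1 oppose, went from 13.6 (9.56 to 18.7) to 123 CPM (103 to 147). The forkhead gene Foxa2 had 91.3 (80.3 to 103) and 123 CPM (103 to 147). Median UMIs before thinning were 8629 and 8491 in the 2 groups of cells, and the parietal list went from 12430 to 3156 CPM while the visceral list had 13057 and 14410 CPM. The groups also differ in cluster: 2 or more members were found in 70.3% of cluster 5 cells and in 1.07%, 6.13% and 4.91% of clusters 4, 7 and 9. These levels were not read inside cluster 5 alone, so number of members and cluster cannot be told apart here.

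The 12 genes of this list were also compared between libraries. From EDG9.5 to Reactivated, 4 of 10 measured genes were called higher (5.64% of all genes), 1 lower (10.6% of all) and 5 neither, with a median log2 difference of 0.49, and that of all genes was -0.16. The retinoic-acid-degrading enzyme gene Cyp26a1 went from 4.62 to 163 CPM, Eomes from 19.03 to 122 CPM and Amot, a regulator of Hippo signalling and cell movement, from 246 to 766 CPM. Fzd5 was the gene called lower, from 57.4 to 18.2 CPM. E5.5 over EDG9.5 gave 6 of 12 higher (6.09% of all genes), none lower (8.57% of all) and 6 neither, with a median of 1.26 against -0.06 for all genes. Otx2 had 0.82 and 185 CPM, a ratio of 227 (77.7 to 1102). Otx2 had 8.79 CPM in Reactivated, so it was low there while Lhx1 had 64.5 CPM. Fzd8, a WNT receptor gene, had 7.37, 11.7, 8.36 and 30.4 CPM over the 4 libraries. Foxa2, also one of the endoderm markers, stayed between 96.4 and 116 CPM in all 4 libraries.

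Among 17 Nodal pathway genes, all measured, 2 were called higher and 2 lower in Reactivated over EDG9.5, and 3 higher and 4 lower in E5.5 over EDG9.5, with medians of -0.45 and -0.53. Over all genes, 5.64% were higher and 10.6% lower in the first comparison and 6.09% and 8.57% in the second, with medians of -0.16 and -0.06. Nodal had 8.16, 35.2 and 49.1 CPM in endoderm of EDG9.5, Reactivated and E5.5. Its co-receptor gene Tdgf1, also one of the epiblast markers, had 71.2, 0.86 and 1.88 CPM, and the related Cfc1 had 3.81, 1.501 and 19.4 CPM. The proprotein convertase gene Furin had 105, 52.5 and 32.7 CPM. Of the intracellular genes, Smad4 had 159, 113 and 153 CPM, the inhibitor Smad7 110, 53.6 and 72.9 CPM and the repressor Skil 99.5, 70.3 and 85.4 CPM. Lefty2, the near copy of Lefty1, had 57.4 and 44.6 CPM in EDG9.5 and Reactivated and 3 UMIs (0.11 CPM) in E5.5, where Lefty1 had 68.1 CPM. In epiblast Lefty2 had 539, 83.1 and 5.05 CPM in the same order.

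The WNT side was read in 2 lists. Of the ligands, receptors and other antagonists, 1 of 17 measured genes was higher and 1 lower in Reactivated over EDG9.5, and 2 of 24 were higher and 2 lower in E5.5 over EDG9.5, with medians of -0.29 and 0.04. Of all genes, 5.64% were higher and 10.6% lower in the first and 6.09% and 8.57% in the second. Rspo3, which amplifies WNT signalling, had 125 CPM at EDG9.5, 3.001 at Reactivated and 34.9 at E5.5. Frzb, another Sfrp-family antagonist, had 0.27, 1.71 and 50.8 CPM, and the ligand gene Wnt11 15.5, 66.0 and 44.1 CPM. None of the other 5 named genes was called higher or lower in either comparison. In plain CPM, Wls and Dkkl1 differed by more than 2-fold in E5.5 over EDG9.5, but not on the scale used for calls. The co-receptor gene Lrp6 had 75.9, 39.01 and 64.4 CPM, the receptor gene Fzd7 80.2, 52.9 and 68.1 CPM, and Wls, which carries WNT proteins to the surface, 47.04, 42.9 and 103 CPM. Lgr4, a receptor gene for R-spondins, had 37.3, 30.01 and 44.5 CPM, and Dkkl1 14.7, 14.4 and 4.28 CPM. Among WNT targets and effectors none of 9 was higher and 3 were lower in Reactivated, and 1 of 14 was higher and 2 lower in E5.5, both over EDG9.5, with medians of -0.55 and -0.04 beside -0.16 and -0.06 for all genes, of which 5.64% and 10.6%, then 6.09% and 8.57%, were called. Axin2, a feedback target of the pathway called lower in both, had 77.8, 15.9 and 11.3 CPM at EDG9.5, Reactivated and E5.5. The target Sp5, called higher in E5.5, had 1.90, 0.21 and 16.4 CPM. Beta-catenin (Ctnnb1) had 141, 96.2 and 290 CPM, the transcription factor genes Tcf7l2 and Tcf7l1 had 116, 75.9 and 179 CPM and 80.5, 69.9 and 82.8 CPM, and Lgr5 15.8, 21.2 and 9.18 CPM.

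Of the BMP pathway genes, 2 of 13 were called higher and 4 lower in Reactivated over EDG9.5, and 5 of 17 higher and none lower in E5.5 over EDG9.5, with medians of -0.32 and 0.18. All genes had 5.64% higher and 10.6% lower, then 6.09% and 8.57%, and medians of -0.16 and -0.06. The BMP target Id3 had 19.6, 32.4 and 241 CPM in EDG9.5, Reactivated and E5.5, Id2 had 35.3, 88.3 and 303 CPM and Id1 6.25, 52.7 and 104 CPM. The signal transducer Smad1 had 38.9, 14.4 and 103 CPM, the ligand gene Bmp2 32.4, 6.22 and 29.0 CPM and the target Msx2 68.5, 18.2 and 74.1 CPM, all lowest in Reactivated. The receptor genes Bmpr1a and Bmpr2 had 144, 85.5 and 131 CPM and 12.8, 4.29 and 5.05 CPM, and the antagonist Chrd 3.81, 4.93 and 5.53 CPM. In EDG9.5 over EDG7.5 no gene of these 5 lists was called in either direction.

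Likeness of pattern was described by Pearson's r of log2 of CPM plus 10 over 12 endoderm clusters, among 5666 genes reaching 50 CPM in 1 cluster. These clusters were made with the members included, and clusters of 1 library share its depth. Cer1 had 262 CPM in 1 of them, a cluster of 966 E5.5 cells, and at most 1.43 CPM in every other. Its r therefore rests on that 1 cluster. Sfrp5 and Lhx1 were also highest there, at 258 and 550 CPM. Cer1 was most like Gsc (0.99), Dbn1 (0.99) and Sox3 (0.98), Lhx1 like Irs4 (0.99), Fgf8 (0.98) and Fgf5 (0.98, an epiblast marker with up to 328 CPM in 1 of these clusters), Sfrp5 like Pilra (0.99), Tspan7 (0.99) and Eras (0.99), and Sfrp1 like Il17rd (0.96), Ackr3 (0.96) and Fzd5 (0.93). Dkk1 was most like Hspb1 (0.95), a small heat shock protein gene, and Nr2c2ap (0.94). Hhex was most like Npm3 (0.86), Cdk2ap2 (0.85) and Rab11b (0.84), and Lefty1 like Drap1 (0.85), Ube2h (0.78) and Eif1ax (0.76). Among the members, r was highest for Cer1 with Sfrp5 (0.91) and lowest for Dkk1 with Sfrp5 (-0.49).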

How the data were processed

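The authors deposited, for each of the 4 libraries, whole-number counts per gene and cell barcode. Per the labels' protocols, cells were captured on the BD Rhapsody Express system with its whole-transcriptome kit and sequenced on a NextSeq 500. The submitters' processing notes name UMI-tools 1.0.1, STAR 2.7.1a, Subread, featureCounts 1.6.4 and mm10. They are taken as counts of UMIs, since UMI-tools handles such tags. No annotation, strand setting or rule for choosing barcodes is given in the sources used here.

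Cells with at least 1000 UMIs, 500 genes and under 25% mitochondrial UMIs were kept, doublets called by Scrublet in scanpy 1.11.5 were removed (12 of EDG7.5, 7 of EDG9.5, 2 of Reactivated and 278 of E5.5), and each library was clustered alone (2000 variable genes, 30 components, 15 neighbours, Leiden resolution 1). A cluster was named for the marker list leading by at least 0.5 on the log2 scale. That a list competes only with 3 markers at 20 CPM was decided after the clusters were seen. Clusters of 49 cells in EDG9.5 and 437 in E5.5 stayed unnamed. UMIs were summed per library and lineage and divided by the summed total, with exact Poisson, Clopper-Pearson and conditional binomial 95% intervals. No test was run, since each stage has 1 library. TMM factors came from edgeR 4.0.16. Interval coverage, thinning and expected co-detection were checked on simulated data. Counts drawn for coverage and co-detection were Poisson, so these checks do not cover spread between cells beyond depth. The members and lists were chosen with earlier results of these data known. Named genes are the members and, per list, the 4 with the highest mean CPM and those with the highest and lowest ratio of each comparison among genes with at least 50 UMIs. For each member the 3 genes most like it over clusters are named too, except 1 for Dkk1 that is not reported here. Gsc was named in the counts by members per cell after its values were seen. The series text also names an E4.5 stage, which is not analysed here.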

Additional observations from a re-analysis of the deposited data

Results flagged for a closer look

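The endoderm and the epiblast of the same libraries differed in opposite directions for 3 members. The difference between the lineages was not tested, since each stage has 1 library. Lefty1 in Reactivated over EDG9.5 had a log2 difference of 1.09 in endoderm and -1.72 in epiblast. Hhex in the same comparison had 1.56 and -1.10. Sfrp1 in E5.5 over EDG9.5 had 1.65 in endoderm and -3.28 in epiblast. In Reactivated over EDG9.5 itself, Sfrp1 was lower in both lineages (0.46 times in endoderm and 0.10 times in epiblast), so its opposite course belongs to the comparison with E5.5.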

How the results depend on the processing

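No paired analysis was possible because each stage has 1 library and every label carries the same replicate number. Over 14 alternative settings, run for endoderm alone, no member called there reversed its direction. Of 392 log2 differences of members, 348 moved by no more than their counting error and 44 by more. Those of Cer1 in EDG9.5 over EDG7.5, at 0 throughout, count among the 348. A filter of at least 500 UMIs and 250 genes kept the same cells as the main filter, so its differences could not move. Another resolution, or clustering without the members, left the number of endoderm cells unchanged in EDG7.5, Reactivated and E5.5. The 348 are therefore not all separate checks. The epiblast calls were not run under these settings. Lefty1 in E5.5 over EDG9.5, not called, turned from -0.30 to 0.04 with TMM factors, 0.51 as a mean over cells and 0.27 with thinned cells. The count of members higher in EDG9.5 over EDG7.5 became 1 (Lefty1) with at least 2000 UMIs per cell, with under 10% mitochondrial UMIs and with 1 CPM added in place of 10. The count lower in Reactivated over EDG9.5 became 1 (Sfrp1) with 1 CPM added. TMM factors moved the median log2 difference of all genes from -0.16 to 0.02 in Reactivated over EDG9.5 and from -0.06 to 0.06 in E5.5 over EDG9.5.

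The share of endoderm cells with 2 or more members depends on depth. In library order from EDG7.5 to E5.5 it was 3.97%, 3.58%, 15.8% and 17.8% at 1000 UMIs per cell, 25.4%, 23.8%, 55.4% and 40.5% at 4000 UMIs, and 33.3%, 22.3%, 87.1% and 56.6% without thinning. Asking for at least 2 UMIs of each member gave 0.877%, 1.03%, 3.30% and 10.5%. Reactivated was above E5.5 at 4000 UMIs and below it with 2 UMIs per member, while their intervals overlap at 1000 and 2000 UMIs. By value alone, both stayed above EDG7.5 and EDG9.5 in all of these settings. With 2 UMIs per member the Reactivated share rests on few cells, and no interval is given here. These settings change the UMIs read per cell or asked for, and the cause was not tested further. A count of 0 in EDG7.5 endoderm allows up to 0.921 CPM by the floor of 3 counts.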
